A study of Mus musculus with 24 samples.

Results

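Soleus (SOL) was set against gastrocnemius (GAS) in young sedentary mice (YC), over all genes measured. The SOL YC and GAS YC libraries were chosen by their labels, 3 of each, and are 6 of the 24 libraries of the series. All 18795 genes of the table were kept. SOL YC is whole soleus of wild-type C57BL/6 males labelled as 9 weeks old that were not exercised, and GAS YC is whole gastrocnemius of the same kind of mice. The mice were housed one to a cage, and a SOL and a GAS library with the same number were taken as the muscles of 1 mouse. The other 18 libraries hold both muscles of young mice that ran on a treadmill for 4 weeks (YE), of sedentary mice of 84 weeks (OC) and of mice of that age that ran for 4 weeks (OE), 3 mice each, and they served to set the spread between replicates and to place the YC values. Each library is RNA of a whole muscle, so that fewer cells of a type and less RNA per cell cannot be told apart.

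Skeletal muscle fibers differ in which copies of the contractile genes they use. Slow type I fibers carry the myosin heavy chain of Myh7, burn fat and carbohydrate in many mitochondria and resist fatigue. Fast fibers carry the myosins of Myh2 (type IIA), Myh1 (IIX) or Myh4 (IIB), in the order of rising speed and falling oxidative capacity, and the fastest ones live largely on glycogen and glycolysis. The mouse soleus works continuously to hold posture and mixes type I with type IIA fibers, while the gastrocnemius beside it is mostly fast, with a small deep portion that is redder and slower.

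Levels are given in FPKM, the fragments of a gene scaled to its transcript length and to the size of the library, as the authors obtained them, in the order of mice 1, 2 and 3. Differences are SOL YC minus GAS YC on the scale of log2(FPKM + 1) after quantile normalization of all libraries, a step that gives every library the same set of values. They come with their standard error (SE) and with a limma p-value adjusted over all 18795 genes (adjusted p), and a gene is called higher or lower where adjusted p is under 0.05. Adding 1 understates the difference of genes of low level. The number of reads behind a library is unknown, so that no counting interval can be given. The RNA of GAS YC was the more concentrated: the 10 most abundant genes held 16.1% to 17.95% of the summed FPKM in the SOL YC libraries and 33.4% to 38.3% in the GAS YC libraries.

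Both muscles carried the transcripts that define skeletal muscle. Acta1, skeletal α-actin, reached 21387, 17168 and 26395 FPKM in SOL YC, against 34095, 35114 and 37330.0 FPKM in GAS YC, and it was named after its values were seen. Some libraries stood apart within their group. GAS YC 1 and GAS YC 2 lay below the other 10 GAS libraries, GAS YC 3 included, in 1872 genes (9.96% of the table). Among them were 9 of 17 slow contractile genes, 19 of 23 genes of fatty acid oxidation and 20 of 24 genes of branched-chain amino acid (BCAA) breakdown. SOL YC 1 had more of the fastest fiber genes than SOL YC 2 and 3, for example 240.2, 14.8 and 17.6 FPKM of Myh4. SOL YC 2 had the most adipocyte RNA, with 11.3, 43.0 and 10.5 FPKM of the adipocyte hormone gene Adipoq, and the most of the ribosomal RNA row Rn45s, at 2506, 11817 and 552 FPKM; Adipoq and Rn45s were picked after their values were seen. These values stand beside the results they touch.

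**Figure D1:**
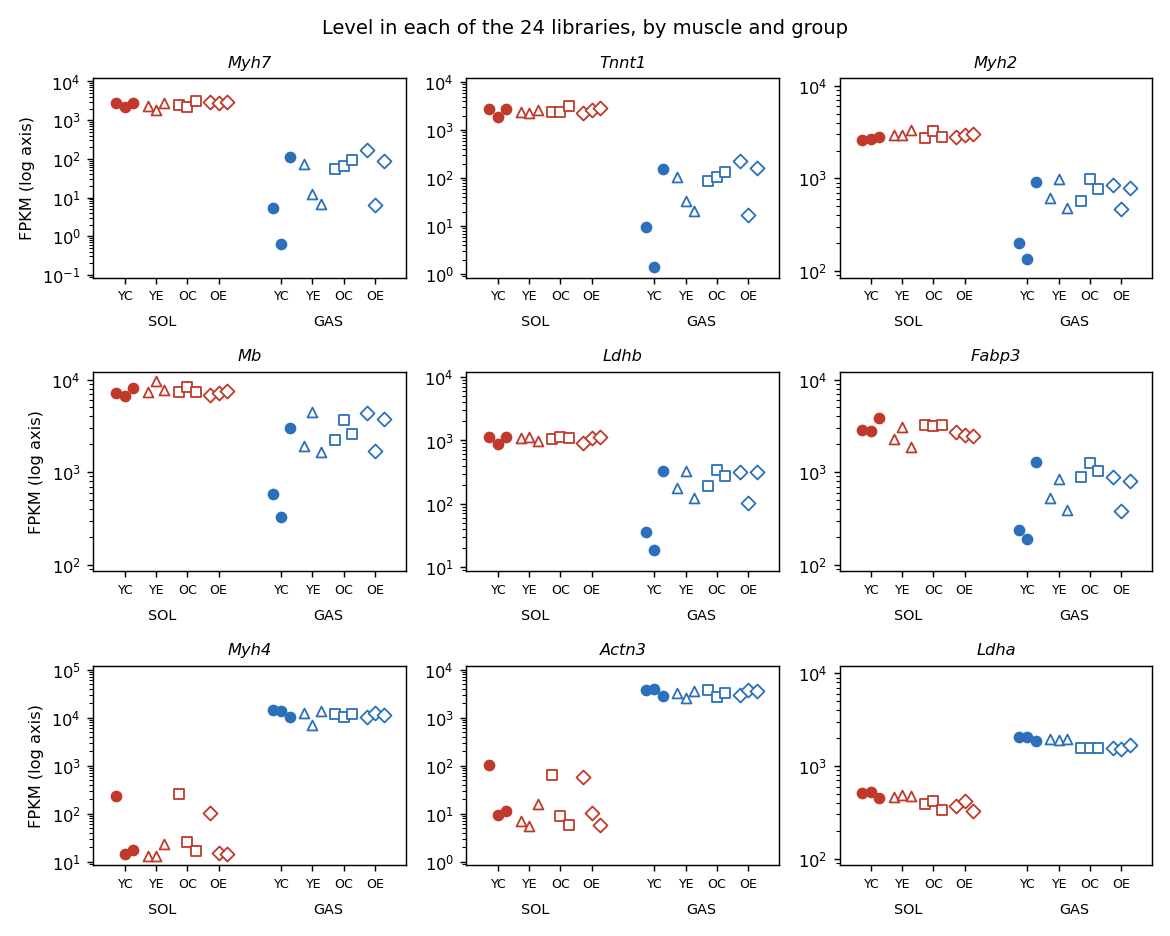
FPKM (log axis) of 9 genes in every library, with SOL libraries in red on the left and GAS libraries in blue on the right, filled circles for YC, triangles for YE, squares for OC and diamonds for OE. In Myh7, Tnnt1, Myh2, Mb, Ldhb and Fabp3 the GAS YC 1 and 2 points lie under every other GAS point, while in Myh4 and Actn3 the SOL YC 1 point lies far above SOL YC 2 and 3.

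Between SOL YC and GAS YC, 7198 of 18795 genes (38.3%) passed the test. They divided evenly, with 3557 (18.9%) higher and 3641 (19.4%) lower in SOL YC. Most of the differences were small: 593 of the higher and 534 of the lower genes differed by more than 2-fold, 137 and 101 by more than 4-fold, and 16 and 16 by more than 16-fold. By unadjusted p under 0.05 and a fold over 2, 1135 genes (6.04%) differed, 597 (3.18%) higher and 538 (2.86%) lower in SOL YC. In the other 9 mice, the mean difference between the muscles ran in the same direction for 3514 of the 3557 higher and 3573 of the 3641 lower genes. It ran so in every one of the 9 mice for 2784 and 2648 of them. The share over all genes was not computed, and the libraries of these mice also helped to set the spread behind the calls.

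The even division rested on the quantile normalization. Without it the median difference of all genes was 0.11 on the log2 scale, and 7190 genes (38.3%) were called higher and 1648 (8.77%) lower in SOL YC. With a median ratio scaling the median was 0.02 and the counts were 4684 (24.9%) and 3049 (16.2%). Of the 3641 genes called lower in SOL YC, 568 had the opposite sign without the normalization, with differences of at most 0.42 in size. Genes over 2-fold after quantile normalization mostly kept their call. Of these, 590 of the 593 higher and 528 of the 534 lower were called in the same direction with all 3 scalings. So were 3336 (17.7%) of all genes higher and 1644 (8.75%) of all genes lower in SOL YC. The 2-fold set was taken after that step, so that it leaves out genes over 2-fold only without it. By unadjusted p under 0.05 and a fold over 2, 1459 genes differed without the step, against 1135 with it. Several of the most abundant fast genes, given below, had a large difference only without it. Small differences named below are therefore given with their value under the other scalings where the direction turned. List counts are given with those under another scaling where the balance moved by more than 10 percentage points. The balance is the share of higher members among the members called. Counts of other lists moved too, but by less in this measure. With the 6 YC libraries fitted alone and the mouse as a block, 1947 genes (10.4%) were called higher and 2072 (11.0%) lower, and with an equal-variance test of each gene 2319 (12.3%) and 2465 (13.1%).

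**Figure D2:**
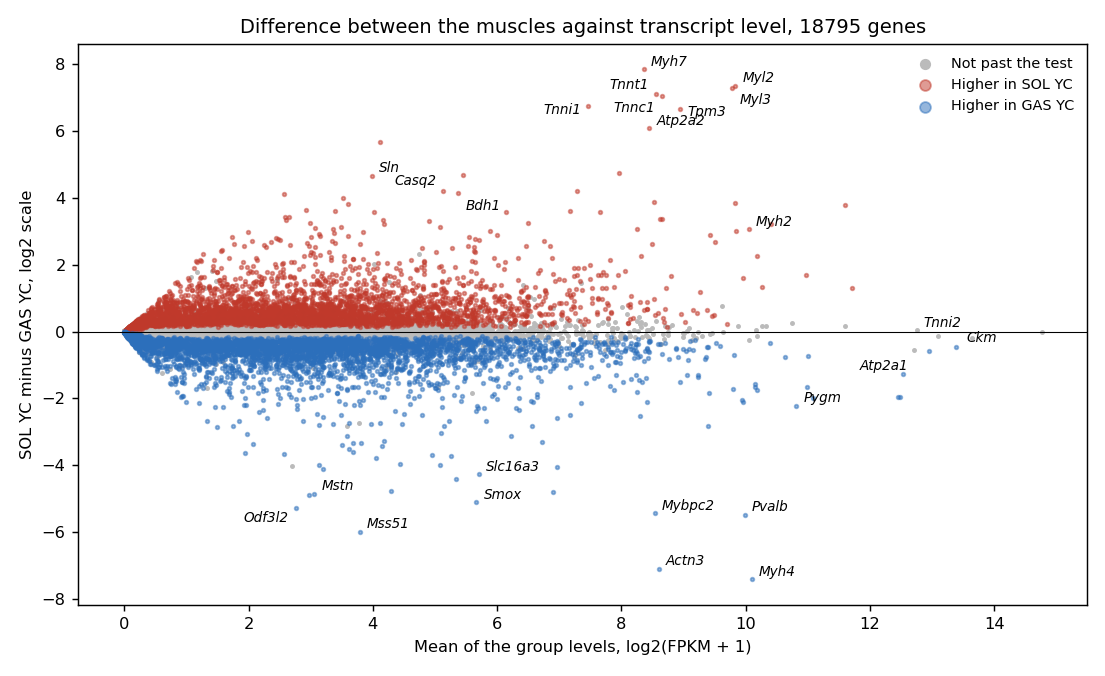
Difference between SOL YC and GAS YC (log2 scale) against the mean of the group levels, log2(FPKM + 1), for each of 18795 genes, in red where higher in SOL YC, in blue where higher in GAS YC and in grey where the test was not passed. The 3557 red and 3641 blue points lie mostly close to the zero line, and the extremes are Myh7 at 7.85 and Myh4 at -7.42.

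**Figure D3:**
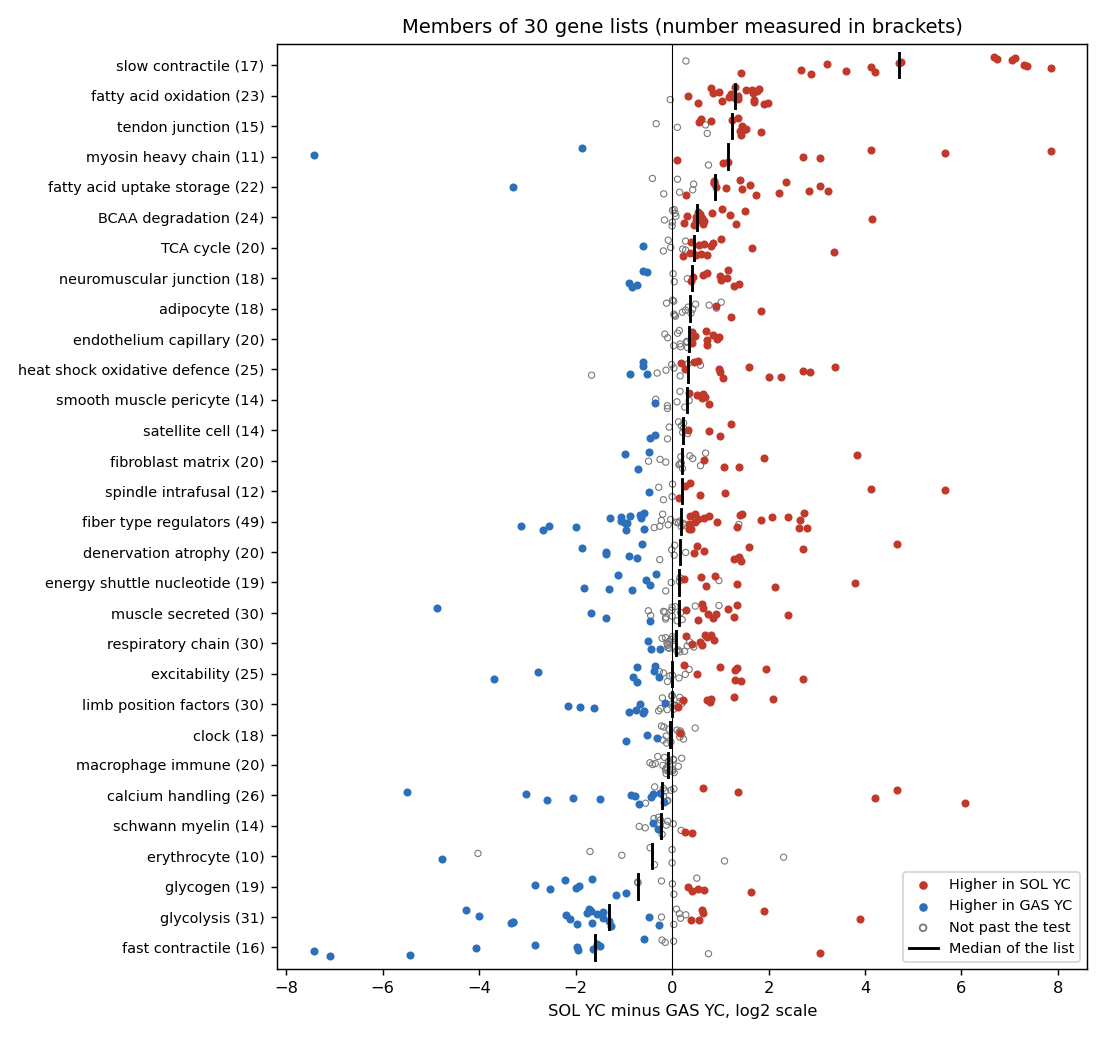
Difference of every member of the 30 gene lists (log2 scale, SOL YC minus GAS YC), filled where the test was passed and open where it was not, with the list's median as a bar. The slow contractile list has the highest median, 4.70, and the fast contractile list the lowest, -1.60.

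Myosin heavy chains held the largest difference in each direction. Myh7, the slow type I chain (chr14:54970684-54994626 in GRCm38.p6), reached 2850.3, 2174 and 2856 FPKM in SOL YC, against 5.44, 0.635 and 113 FPKM in GAS YC. It was the gene with the largest rise in SOL YC (log2 fold change 7.85 ± 1.15 (SE), adjusted p = 2.4e-05), and the 3 GAS YC libraries spread widely beneath it. Myh4, the IIB chain (chr11:67237812-67260447), was the mirror image at 240.2, 14.8 and 17.6 FPKM in SOL YC, against 14749, 13727 and 10454 FPKM in GAS YC, the largest fall (log2 fold change -7.42 ± 0.99 (SE), adjusted p = 8.3e-06). Type IIA Myh2 had 2595, 2695 and 2790.4 FPKM in SOL YC, against 199, 134 and 914 FPKM in GAS YC and was higher in SOL YC (log2 fold change 3.06 ± 0.44 (SE), adjusted p = 1.9e-05), although IIA is a fast chain. Type IIX Myh1 had 1011, 1124 and 866 FPKM in SOL YC, against 470.1, 221 and 1133 FPKM in GAS YC, its groups overlapped, and it did not pass the test (log2 fold change 0.75 ± 0.42 (SE), adjusted p = 0.18).

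As shares of the summed FPKM of these 4 genes, Myh7 made up 40.8% ± 4.06, Myh2 42.1% ± 3.10, Myh1 15.7% ± 2.78 and Myh4 1.37% ± 1.92 in SOL YC, against 0.313% ± 0.508, 3.16% ± 3.54, 4.54% ± 3.92 and 92.0% ± 7.95 in GAS YC (SD, n = 3 each). The share of Myh7 was 40.5 percentage points higher in SOL YC, with all 3 SOL libraries above all 3 GAS libraries (exact permutation test, two-sided, p = 0.1, the smallest that 3 against 3 allows). This test took the libraries as unpaired and did not use the mouse. In the 9 other mice the Myh7 share ran from 34.0% to 48.5% with a median of 38.0% in SOL, and from 0.0453% to 1.31% with a median of 0.522% in GAS. Their Myh4 share in GAS ran from 74.4% to 91.6%, so that the IIB share of GAS YC 1 and 2, 95.6% and 97.5%, lay above all of them.

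**Figure D4:**
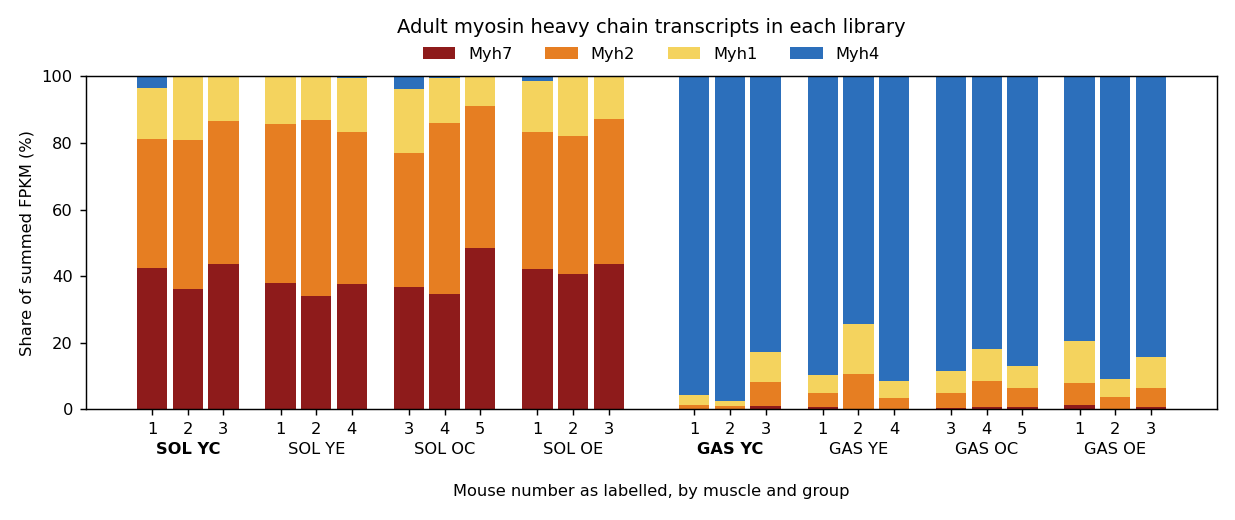
Share of Myh7, Myh2, Myh1 and Myh4 in their summed FPKM (%) for each library, by muscle, group and mouse number. Myh7 and Myh2 fill most of each SOL bar, with means of 40.8% and 42.1% in SOL YC, and Myh4 fills most of each GAS bar, with a mean of 92.0% in GAS YC.

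Most of the other heavy chains were higher in SOL YC, and perinatal Myh8 was lower. Myh7b, a slow-type chain, had 27.8, 21.1 and 23.5 FPKM in SOL YC, against 0.0223, 0.00576 and 1.21 FPKM in GAS YC (log2 fold change 4.12 ± 0.33 (SE), adjusted p = 2.0e-08). Myh6, known as the atrial α chain, had 111, 83.8 and 112 FPKM in SOL YC, against 0.0678, 0.00961 and 5.58 FPKM in GAS YC (log2 fold change 5.67 ± 0.61 (SE), adjusted p = 7.5e-07). The Myh6 level was 3.90%, 3.86% and 3.92% of the Myh7 level in SOL YC, against 1.25%, 1.51% and 4.92% in GAS YC and 4.21% to 12.2% in the other GAS libraries. The pair are neighbours of closely alike sequence, and whether they share reads was not tested. Embryonic Myh3 was higher in SOL YC at 10.8, 10.4 and 9.64 FPKM in SOL YC, against 0.171, 0.187 and 1.26 FPKM in GAS YC (log2 fold change 2.71 ± 0.33 (SE), adjusted p = 3.6e-06), while perinatal Myh8 was lower at 54.1, 50.2 and 54.6 FPKM in SOL YC, against 201, 184 and 164 FPKM in GAS YC (log2 fold change -1.87 ± 0.16 (SE), adjusted p = 6.4e-08). Of the 11 heavy chains, 8 were higher and 2 lower in SOL YC, with Myh1 not passing, against 18.9% and 19.4% of all genes. Myh13, Myh14 and Myh15 were the remaining ones that rose, by 1.05, 1.16 and 0.10, and Myh15 was near 0 everywhere. Myhas, an RNA antisense to the fast myosin cluster, had 1.15, 0.184 and 0.325 FPKM in SOL YC, against 39.1, 41.3 and 36.0 FPKM in GAS YC, with no overlap of the groups (log2 fold change -4.89 ± 0.20 (SE), adjusted p = 2.1e-11). Myhas overlaps the 3′ end of Myh1, and whether the counting used the strand is not given in the sources used here.

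The genes of the 3 fast adult chains lie side by side on chromosome 11, in the order Myh2, Myh1 and Myh4, and their 200 bases before the start are shown because 3 neighbours with such different levels share a stretch there. The bases are from RefSeq on GRCm38.p6, plus strand, 5′ to 3′, and the capitals mark a run of 20 bases that is identical in all 3.
Myh2, chr11:67170827-67171026: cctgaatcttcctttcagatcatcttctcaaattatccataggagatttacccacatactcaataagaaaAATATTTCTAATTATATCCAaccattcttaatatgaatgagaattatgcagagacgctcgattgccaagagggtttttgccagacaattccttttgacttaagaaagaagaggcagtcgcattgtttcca
Myh1, chr11:67199902-67200101: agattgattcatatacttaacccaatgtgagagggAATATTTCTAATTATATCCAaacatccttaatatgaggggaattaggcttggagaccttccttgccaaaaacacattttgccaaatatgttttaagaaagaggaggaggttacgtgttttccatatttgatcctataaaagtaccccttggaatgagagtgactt
Myh4, chr11:67237612-67237811: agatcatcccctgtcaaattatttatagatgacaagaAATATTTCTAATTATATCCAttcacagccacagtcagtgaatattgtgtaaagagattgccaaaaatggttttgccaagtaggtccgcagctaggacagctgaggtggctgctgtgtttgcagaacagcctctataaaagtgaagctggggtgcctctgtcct
The run spans bases 130 to 111 before the start in Myh2, 165 to 146 in Myh1 and 163 to 144 in Myh4. Of the 14132 genes of the table with a promoter entry, those 3 (0.0212%) held it within the same 200 bases, on either strand.

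Troponin C shows the same contrast for a pair of genes on different chromosomes. Tnnc1, the slow calcium-sensing troponin subunit, had 2604, 1900.1 and 2868 FPKM in SOL YC, against 13.4, 0.883 and 181 FPKM in GAS YC (log2 fold change 7.06 ± 1.19 (SE), adjusted p = 1.1e-04). Tnnc2, the fast one, had 4886, 4015 and 5294 FPKM in SOL YC, against 16760.0, 16392 and 15714 FPKM in GAS YC. Its groups did not overlap in FPKM, yet its difference was -0.14 after quantile normalization (adjusted p = 0.54), -1.79 without it and -2.101 with median ratio scaling. The 200 bases before each start (RefSeq, GRCm38.p6, 5′ to 3′ on the gene's strand) are shown for this pair, with E-boxes, the CANNTG motif of the myogenic factors, in capitals.
Tnnc1, chr14:31208112-31208311, plus strand: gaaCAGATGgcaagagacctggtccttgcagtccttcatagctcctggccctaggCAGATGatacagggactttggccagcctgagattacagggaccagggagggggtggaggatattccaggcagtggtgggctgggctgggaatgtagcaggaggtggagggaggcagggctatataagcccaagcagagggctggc
Tnnc2, chr2:164779735-164779934, minus strand: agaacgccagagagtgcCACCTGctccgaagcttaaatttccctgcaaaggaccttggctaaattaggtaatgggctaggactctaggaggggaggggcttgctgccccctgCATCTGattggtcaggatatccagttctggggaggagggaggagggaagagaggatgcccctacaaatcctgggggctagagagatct
Each holds 2 E-boxes. An E-box stood in 16 of 17 promoters of the slow contractile list (94.1%), 6 of 9 of the fast contractile list (66.7%) and 51.6% of all 14132 promoters of this length, searched on both strands. The MEF2 site, another muscle motif, was in 2 of 17 slow and 2 of 9 fast promoters, against 1.49% of all. Further motifs were counted. The MCAT element was in 3 of 17 slow and 4 of 9 fast promoters (8.81% of all). The TATA box was in 2 of 17 and 3 of 9 (6.28% of all). The CArG box and the ERR half-site were each in 1 of 17 and 1 of 9 (0.977% and 2.31% of all). Only 9 of the 16 fast genes had a promoter entry, and the outermost start of each gene was used. These are matches of letters and not shown to be bound.

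The slow contractile list rose almost as a whole, with 16 of 17 members higher and 0 lower in SOL YC (94.1% and 0%, against 18.9% and 19.4% of all genes) and a median difference of 4.70, against 0 for all genes. The shares given after the counts of later lists are to be read against the same 18.9% higher and 19.4% lower. The thin filament members were among the largest. Tnnt1, slow troponin T, had 2755, 1880.3 and 2823 FPKM in SOL YC, against 9.81, 1.39 and 156 FPKM in GAS YC (log2 fold change 7.11 ± 1.02 (SE), adjusted p = 1.9e-05), and Tnni1, slow troponin I, had 1197, 888 and 1384 FPKM in SOL YC, against 5.15, 0.373 and 72.5 FPKM in GAS YC (log2 fold change 6.74 ± 1.07 (SE), adjusted p = 5.7e-05). Tpm3, slow α-tropomyosin, had 3296, 2599 and 3712 FPKM in SOL YC, against 18.5, 9.21 and 196 FPKM in GAS YC (log2 fold change 6.68 ± 0.92 (SE), adjusted p = 1.2e-05). In each of them GAS YC 3 lay far above GAS YC 1 and 2, and every SOL YC library lay above all 3 GAS YC libraries. Without GAS YC 3 the median difference of the list was 5.50, and the count stayed at 16. When the 6 YC libraries were fitted alone 15 passed, and 5 did so with the mouse as a block in that fit, in which Tnnt1 (adjusted p = 0.055) and Tnni1 (adjusted p = 0.057) did not and Tpm3 did (adjusted p = 0.035).

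The slow myosin light chains Myl2 and Myl3 rose by 7.36 and 7.31. Myl2 had 4791, 3672 and 5483 FPKM in SOL YC, against 23.4, 6.02 and 504 FPKM in GAS YC, and Myl3 had 4814, 3743 and 5402 FPKM in SOL YC, against 20.1, 9.42 and 464 FPKM in GAS YC. Myl6b rose with little spread among the GAS libraries, at 68.0, 46.0 and 63.4 FPKM in SOL YC, against 4.41, 4.62 and 4.48 FPKM in GAS YC (log2 fold change 3.22 ± 0.19 (SE), adjusted p = 6.6e-10). Of the proteins that order the sarcomere, the M-band gene Myom3 had 207, 183 and 182 FPKM in SOL YC, against 5.18, 1.10 and 21.0 FPKM in GAS YC (log2 fold change 4.70, adjusted p = 7.2e-07) and the Z-disc gene Myoz2, calsarcin-1, had 1042, 919 and 1048 FPKM in SOL YC, against 18.2, 8.67 and 155 FPKM in GAS YC (log2 fold change 4.75, adjusted p = 4.9e-06). Mybpc1, slow myosin-binding protein C, had 1768, 1716 and 1956 FPKM in SOL YC, against 226, 130.2 and 509 FPKM in GAS YC (log2 fold change 2.68, adjusted p = 2.4e-05), and Actn2, the α-actinin of all fiber types, had 1807, 1605 and 1829.7 FPKM in SOL YC, against 165, 99.2 and 547 FPKM in GAS YC (log2 fold change 2.88, adjusted p = 7.4e-06). These genes were thus substantial in GAS YC too. The stretch-responsive genes Ankrd2, Csrp3 and Ankrd1 rose by 4.21, 3.61 and 1.43, and Csrp3, muscle LIM protein, had 418, 452 and 355 FPKM in SOL YC, against 73.6, 4.37 and 71.7 FPKM in GAS YC. Smpx was the member that did not pass, with 244, 247 and 303 FPKM in SOL YC, against 205, 228 and 199 FPKM in GAS YC (adjusted p = 0.34). Outside the naming rule and picked after their values were seen, β-tropomyosin Tpm2 had 3591, 2834 and 3656 FPKM in SOL YC, against 1064, 704 and 1824 FPKM in GAS YC (log2 fold change 1.68, adjusted p = 1.2e-04) and the LIM protein gene Fhl1 2518, 2371 and 2650.3 FPKM in SOL YC, against 309.6, 122 and 582 FPKM in GAS YC (log2 fold change 3.01, adjusted p = 2.3e-06).

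The fast contractile list had 11 of 16 members lower and 1, Myh2, higher in SOL YC (68.8% and 6.25%), with a median of -1.60. Actn3, the α-actinin of fast fibers, came next to Myh4 at 103, 9.57 and 11.4 FPKM in SOL YC, against 3843, 3938 and 2831 FPKM in GAS YC (log2 fold change -7.10 ± 0.89 (SE), adjusted p = 4.0e-06). Mybpc2, fast myosin-binding protein C, had 97.2, 41.5 and 40.9 FPKM in SOL YC, against 2438, 2516 and 1840.2 FPKM in GAS YC (log2 fold change -5.44 ± 0.59 (SE), adjusted p = 8.1e-07), and in both genes SOL YC 1 was the highest SOL YC library. The myosin light chain kinase gene Mylk4 had 38.9, 24.6 and 33.8 FPKM in SOL YC, against 493, 526 and 387 FPKM in GAS YC (log2 fold change -4.06 ± 0.33 (SE), adjusted p = 2.3e-08), and Mylk2, the kinase of skeletal muscle, 129, 146 and 119 FPKM in SOL YC, against 379.8, 421 and 357 FPKM in GAS YC (log2 fold change -1.65, adjusted p = 1.5e-06). Myoz1, Myoz3 and Myom2, fast counterparts of Myoz2 and Myom3, fell by 2.84, 1.55 and 1.498. The fast light chains remained high in soleus: Mylpf had 2262, 1836 and 2515 FPKM in SOL YC, against 16473, 15567 and 12680.0 FPKM in GAS YC (log2 fold change -1.98, adjusted p = 9.1e-08) and Myl1 2219.9, 1941 and 2349 FPKM in SOL YC, against 15010.0, 15475 and 12443 FPKM in GAS YC (log2 fold change -1.95, adjusted p = 7.4e-09).

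The most abundant fast genes depended on the scaling. Tnni2, fast troponin I, had 3784, 3189 and 4180.0 FPKM in SOL YC, against 12765, 13333 and 12109 FPKM in GAS YC, without overlap. Its difference was 0.03 after quantile normalization (adjusted p = 1) but -1.78 without it and -2.09 with median ratio scaling, both called. Tnnt3, fast troponin T, had 6944, 6494 and 7391 FPKM in SOL YC, against 26680.0, 24507 and 19109 FPKM in GAS YC, with a difference of -0.21 (adjusted p = 0.45) after and -1.74 without quantile normalization. Tpm1 had 4056, 3185 and 4089 FPKM in SOL YC, against 17331, 17818 and 14151 FPKM in GAS YC and fell by 0.57 in the first case and by 2.12 in the second, and with the mouse as a block the first value did not pass (adjusted p = 0.059). With either other scaling 14 of the 16 members were called lower. Across the 25 genes whose mean passed 3000 FPKM in a muscle, quantile normalization raised the SOL YC minus GAS YC difference by a median of 0.69 and by as much as 1.82. For the 6481 genes at 1 to 10 FPKM it lowered the difference by a median of 0.37. Slow genes of this size were also touched, and Myl2 rose by 7.36 with and 6.70 without the step. Tcap, the titin cap, chosen after its values were seen, rose by 1.297 with and 0.47 without it.

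**Figure D5:**
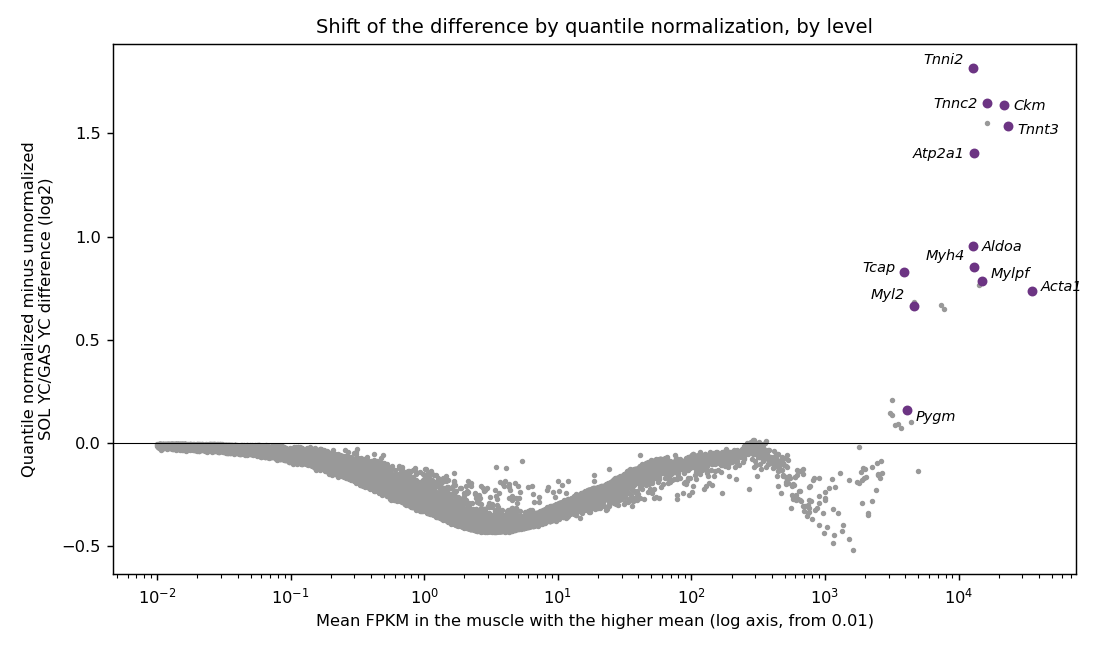
Change that quantile normalization made in the SOL YC minus GAS YC difference of each gene (log2) against the gene's mean FPKM in the muscle with the higher mean (log axis). Named are some of the most abundant genes, with Tnni2 at 1.82 at the top, while the genes at 1 to 10 FPKM lie below 0, with a median of -0.37.

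In the calcium handling list 5 of 26 genes were higher and 12 lower in SOL YC (19.2% and 46.2%), so that only the share of lower genes exceeded that of all genes. Atp2a2 (SERCA2), the calcium pump of slow and cardiac muscle, had 2517, 1833 and 2429.9 FPKM in SOL YC, against 11.3, 10.9 and 136 FPKM in GAS YC (log2 fold change 6.08 ± 0.66 (SE), adjusted p = 8.1e-07). Atp2a1 (SERCA1), its fast counterpart, had 3412, 3314 and 3410.2 FPKM in SOL YC, against 13263, 13927 and 12192 FPKM in GAS YC, and its difference of -0.55 did not pass (adjusted p = 0.096), whereas without quantile normalization it was -1.96 and passed. Calsequestrin, the store protein of the reticulum, showed a like pair: Casq2 had 139.7, 122 and 166 FPKM in SOL YC, against 3.50, 2.73 and 16.6 FPKM in GAS YC (log2 fold change 4.22 ± 0.40 (SE), adjusted p = 1.6e-07) and Casq1 507, 444 and 542 FPKM in SOL YC, against 2072, 2052 and 1637 FPKM in GAS YC (log2 fold change -2.06 ± 0.11 (SE), adjusted p = 2.6e-10). Pvalb, parvalbumin, the soluble calcium buffer of fast fibers, fell to 247, 71.8 and 70.5 FPKM in SOL YC, against 8819, 8881 and 5811 FPKM in GAS YC (log2 fold change -5.49 ± 0.59 (SE), adjusted p = 7.3e-07). Of the small inhibitors of the pump, sarcolipin (Sln) had 90.8, 54.6 and 114 FPKM in SOL YC, against 2.23, 1.07 and 2.28 FPKM in GAS YC (log2 fold change 4.66, adjusted p = 5.9e-08) and phospholamban (Pln) 6.54, 3.56 and 3.19 FPKM in SOL YC, against 0.320, 0.473 and 1.12 FPKM in GAS YC (log2 fold change 1.37, adjusted p = 4.4e-05), both higher in SOL YC, while Mrln, myoregulin, had 12.0, 10.6 and 12.9 FPKM in SOL YC, against 83.3, 109.8 and 79.8 FPKM in GAS YC and was lower (log2 fold change -3.03, adjusted p = 1.1e-10).

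The release channel itself did not separate the muscles. Ryr1 had 349.8, 298 and 355 FPKM in SOL YC, against 356, 333 and 345 FPKM in GAS YC (adjusted p = 0.4), and Cacnb1, Cacna2d1, Srl, Trdn, Hrc, Stac3 and Ryr3 likewise did not pass. Of the voltage sensor genes, Cacng1 and Cacna1s were called lower in SOL YC. The calcium channel subunit gene Cacng1 had the larger fall, with 55.9, 45.4 and 54.0 FPKM in SOL YC, against 299, 328 and 249 FPKM in GAS YC (log2 fold change -2.59, adjusted p = 2.9e-09). Jph1, Jph2, Asph, Jsrp1 and Fkbp1a fell by 0.76, 0.84, 0.68, 0.39 and 0.44, and Stim1, the store sensor, rose by 0.64. Cacna1s and Orai1 fell by 0.17 and 0.24, and Orai1 did not pass with the mouse as a block (adjusted p = 0.069).

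Genes of excitability moved in both directions, with 9 of 25 higher and 8 lower in SOL YC (36% and 32%), and 12 and 7 without quantile normalization. Genes of the β subunits of the sodium pump moved in opposite directions: Atp1b1 had 254, 249.6 and 245 FPKM in SOL YC, against 28.9, 15.9 and 92.1 FPKM in GAS YC (log2 fold change 2.72, adjusted p = 3.1e-05), and Atp1b2 had 9.71, 9.16 and 6.12 FPKM in SOL YC, against 110.0, 118 and 76.7 FPKM in GAS YC (log2 fold change -3.69, adjusted p = 6.1e-10). Potassium channels that rose included Kcnma1 (1.94), Kcnn3 (1.36) and Kcnj2 (1.31), while Kcnc4 had 3.44, 2.81 and 3.96 FPKM in SOL YC, against 24.01, 23.7 and 21.7 FPKM in GAS YC and fell (log2 fold change -2.78, adjusted p = 2.1e-09). The muscle chloride channel gene Clcn1 fell by 0.81, with 37.1, 34.0 and 35.6 FPKM in SOL YC, against 60.9, 58.0 and 56.0 FPKM in GAS YC. Scn4a, the sodium channel of the fiber membrane, fell by 0.36.

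Genes of fatty acid use were mostly higher in soleus. In fatty acid oxidation 22 of 23 genes were higher and 0 lower in SOL YC (95.7% and 0%), with a median of 1.31, and Acot13 did not pass. Values were close within SOL YC: Cpt1b, the carnitine transferase that admits fatty acids to the mitochondrion, had 297, 261 and 308 FPKM in SOL YC, against 102, 93.5 and 152 FPKM in GAS YC (log2 fold change 1.31 ± 0.13 (SE), adjusted p = 4.0e-07). The chain-shortening enzymes behaved alike. Acadm, medium-chain acyl-CoA dehydrogenase, had 397, 359.9 and 396 FPKM in SOL YC, against 98.8, 93.4 and 163 FPKM in GAS YC (log2 fold change 1.70 ± 0.16 (SE), adjusted p = 1.0e-07), and Hadhb, a subunit of the trifunctional protein, 506, 467 and 522 FPKM in SOL YC, against 110.1, 106 and 208 FPKM in GAS YC (log2 fold change 1.81 ± 0.17 (SE), adjusted p = 1.4e-07). Hadha, Decr1, Hadh, Etfa and Eci2 rose by 1.65, 1.36, 1.54, 1.68 and 0.84. GAS YC 3 was again the highest GAS YC library in these genes, and with each YC library left out in turn the number called higher stayed at 22.

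In uptake and storage 15 of 22 genes were higher and 1 lower in SOL YC (68.2% and 4.55%). Fabp3, the fatty acid carrier of heart and slow muscle, had 2889.6, 2813 and 3818 FPKM in SOL YC, against 239, 189 and 1292 FPKM in GAS YC (log2 fold change 3.22 ± 0.52 (SE), adjusted p = 6.7e-05). Lpl, the lipase that frees fatty acids in the capillary, had 863, 690.2 and 934 FPKM in SOL YC, against 58.4, 47.4 and 227 FPKM in GAS YC (log2 fold change 3.08 ± 0.37 (SE), adjusted p = 2.5e-06), and the transporter gene Cd36 242, 248 and 256 FPKM in SOL YC, against 36.7, 41.0 and 86.9 FPKM in GAS YC (log2 fold change 2.21 ± 0.25 (SE), adjusted p = 1.2e-06). The lipid droplet gene Plin5 had 38.3, 41.1 and 34.1 FPKM in SOL YC, against 3.45, 3.88 and 11.2 FPKM in GAS YC (log2 fold change 2.36, adjusted p = 4.6e-07), and the triglyceride enzyme genes Dgat2, Mgll, Acsl1 and Gpam rose by 2.84, 1.62, 1.73 and 1.11. Gpd1, the glycerol phosphate dehydrogenase of the cytosol, was the member lower in SOL YC, with 36.6, 46.0 and 22.4 FPKM in SOL YC, against 366, 317 and 244 FPKM in GAS YC (log2 fold change -3.30, adjusted p = 4.1e-09); with the mouse as a block 2 members were lower.

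Genes of the tricarboxylic acid cycle were higher in SOL YC for 13 of 20 members and lower for 1 (65% and 5%), with a median of 0.45; with median ratio scaling 8 were higher and 3 lower. Idh2, the mitochondrial NADP isocitrate dehydrogenase, stood apart at 1236, 919.9 and 1204 FPKM in SOL YC, against 61.9, 44.7 and 303 FPKM in GAS YC (log2 fold change 3.36 ± 0.46 (SE), adjusted p = 1.1e-05), followed by Mdh1, of the cytosol, at 797, 779 and 869.6 FPKM in SOL YC, against 178, 173 and 381 FPKM in GAS YC (log2 fold change 1.66 ± 0.22 (SE), adjusted p = 8.7e-06). Of the remaining members called higher, Suclg2 differed most (1.00). Cs, citrate synthase, had 453, 434 and 455 FPKM in SOL YC, against 296, 267 and 360.5 FPKM in GAS YC (log2 fold change 0.50, adjusted p = 1.1e-04). Ogdh, Sdhc, Dld, Dlst and Sdha rose by 0.80, 0.84, 0.73, 0.60 and 0.55, and Pcx, which refills the cycle from pyruvate, fell by 0.60.

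In the respiratory chain 8 of 30 members were higher and 3 lower in SOL YC (26.7% and 10%), with a median of 0.08, and the 36.7% called in all was close to the 38.3% of all genes. Without quantile normalization 12 were higher and 0 lower, with a median of 0.27, and with median ratio scaling 6 and 4. Those that rose included Ndufs1, Ndufv1 and Ndufa10 of complex I (0.87, 0.73 and 0.59) and Uqcrc2 and Uqcrfs1 of complex III (0.80 and 0.68). Uqcrc2 had 364, 352 and 382 FPKM in SOL YC, against 183, 172 and 259.7 FPKM in GAS YC. Cox4i1 had 738, 662 and 820.1 FPKM in SOL YC, against 639.8, 667 and 1081 FPKM in GAS YC and was called lower (log2 fold change -0.43, adjusted p = 0.02), Ndufb8 was lower by 0.51, and Atp5o was called lower by 0.26 but had a difference of 0.00 without quantile normalization. The ATP synthase genes Atp5b and Atp5a1 did not pass (differences of 0.26 and 0.16), although their FPKM did not overlap; Atp5b had 2136, 2003 and 2177 FPKM in SOL YC, against 1255, 1223 and 1716 FPKM in GAS YC. In 21 of the 30 genes GAS YC 1 and 2 were the lowest of all GAS libraries.

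Genes for the breakdown of branched-chain amino acids and ketone bodies were higher in SOL YC for 17 of 24 members and lower for 0 (70.8% and 0%), with a median of 0.51. Bdh1, the 3-hydroxybutyrate dehydrogenase that begins the use of ketone bodies, had 148, 123 and 133 FPKM in SOL YC, against 2.49, 1.73 and 30.9 FPKM in GAS YC (log2 fold change 4.14 ± 0.54 (SE), adjusted p = 7.2e-06). Oxct1, the next enzyme of ketone use, had 274, 217 and 304 FPKM in SOL YC, against 67.7, 68.5 and 155 FPKM in GAS YC (log2 fold change 1.51 ± 0.22 (SE), adjusted p = 1.7e-05), and Acat1 155, 142 and 172 FPKM in SOL YC, against 49.2, 46.7 and 83.1 FPKM in GAS YC (log2 fold change 1.34 ± 0.16 (SE), adjusted p = 3.5e-06). On the BCAA side, Ivd had 139.8, 118 and 125 FPKM in SOL YC, against 49.4, 43.7 and 66.8 FPKM in GAS YC (log2 fold change 1.21, adjusted p = 4.7e-07), and the ketoacid dehydrogenase genes Bckdhb, Dbt and Bckdha rose by 0.67, 0.63 and 0.50. The phosphatase gene Ppm1k, which activates that complex, rose by 1.04, and its kinase gene Bckdk did not pass (-0.16, adjusted p = 0.12). Neither did Bcat2, the aminotransferase of the first step, at 41.9, 38.2 and 36.4 FPKM in SOL YC, against 33.6, 32.1 and 40.7 FPKM in GAS YC.

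Glycolysis genes ran the other way, with 19 of 31 lower and 6 higher in SOL YC (61.3% and 19.4%) and a median of -1.31. The main muscle isoforms fell by amounts close to one another: Pfkm, which commits sugar to glycolysis, by 1.57, Tpi1 by 1.72, Gapdh by 1.66, Pgk1 by 1.44, Pgam2 by 1.76, Eno3 by 1.98 and Pkm by 1.67. Ldha, the muscle form of lactate dehydrogenase, had 514, 522 and 456 FPKM in SOL YC, against 2042, 2052 and 1855 FPKM in GAS YC (log2 fold change -2.12 ± 0.10 (SE), adjusted p = 4.6e-11). Ldhb, the heart form, was higher in SOL YC at 1152, 892 and 1152 FPKM in SOL YC, against 35.8, 18.4 and 324 FPKM in GAS YC (log2 fold change 3.89 ± 0.63 (SE), adjusted p = 7.1e-05). Pfkm had 724, 647 and 697 FPKM in SOL YC, against 1887, 1909 and 1769.5 FPKM in GAS YC, so that the 3 libraries of each muscle lay close together. Aldoa, the muscle aldolase and the most abundant gene of the list, had 2975, 2697 and 2504 FPKM in SOL YC, against 13637, 13789 and 11052 FPKM in GAS YC and fell by 1.27 with quantile normalization and by 2.23 without it.

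Larger folds were found in genes of lower level. Pfkfb3, which makes the activator of phosphofructokinase, had 6.18, 11.5 and 7.12 FPKM in SOL YC, against 120.4, 144 and 106 FPKM in GAS YC (log2 fold change -3.999 ± 0.32 (SE), adjusted p = 2.5e-08). The lactate exporter gene Slc16a3 (MCT4) had 15.9, 12.4 and 6.79 FPKM in SOL YC, against 229, 276 and 138 FPKM in GAS YC (log2 fold change -4.27 ± 0.36 (SE), adjusted p = 3.7e-08), and the monocarboxylate transporter gene Slc16a1 (MCT1) was higher in SOL YC with 36.2, 25.9 and 37.3 FPKM in SOL YC, against 5.36, 4.27 and 12.1 FPKM in GAS YC (log2 fold change 1.91 ± 0.22 (SE), adjusted p = 1.4e-06). Gpd2, of the glycerol phosphate shuttle, had 5.92, 5.38 and 4.49 FPKM in SOL YC, against 55.8, 51.8 and 45.1 FPKM in GAS YC (log2 fold change -3.29, adjusted p = 4.6e-10), and the fructose bisphosphatase gene Fbp2 5.87, 2.65 and 3.23 FPKM in SOL YC, against 46.3, 33.0 and 37.4 FPKM in GAS YC (log2 fold change -3.34, adjusted p = 6.7e-09). Hk2, hexokinase, was higher in SOL YC at 130.5, 121 and 123 FPKM in SOL YC, against 79.0, 62.5 and 106 FPKM in GAS YC (log2 fold change 0.56, adjusted p = 9.1e-04). The insulin-responsive glucose carrier gene Slc2a4 (GLUT4) had 266, 225 and 227 FPKM in SOL YC, against 215, 219.6 and 225 FPKM in GAS YC and did not pass (adjusted p = 0.46).

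In glycogen metabolism 8 of 19 genes were lower and 5 higher in SOL YC (42.1% and 26.3%). Some genes of breakdown were lower in SOL YC: Pygm, muscle phosphorylase, had 847, 740.3 and 766 FPKM in SOL YC, against 4364, 4459 and 3526 FPKM in GAS YC (log2 fold change -2.23 ± 0.10 (SE), adjusted p = 3.0e-11), and 3 of its kinase subunits, Phkg1, Phkb and Phka1, fell by 2.84, 1.94 and 1.99. Pgm2, a phosphoglucomutase, fell by 2.53. Genes of synthesis were higher in SOL YC: the branching enzyme gene Gbe1 had 79.0, 81.6 and 78.1 FPKM in SOL YC, against 18.6, 21.8 and 27.7 FPKM in GAS YC (log2 fold change 1.64, adjusted p = 1.0e-07), and Gys1, glycogen synthase, and Gyg, its primer, rose by 0.67 and 0.41.

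Genes of oxygen storage, phosphocreatine and adenine nucleotides were split, with 7 of 19 higher and 7 lower in SOL YC (36.8% and 36.8%), and 8 and 5 without quantile normalization. Mb, myoglobin, had 7152, 6724 and 8130.0 FPKM in SOL YC, against 586, 329.7 and 3002 FPKM in GAS YC (log2 fold change 3.80 ± 0.48 (SE), adjusted p = 4.3e-06), and GAS YC 3 again stood far above GAS YC 1 and 2. Ckmt2, mitochondrial creatine kinase, had 2102, 2024 and 2166 FPKM in SOL YC, against 501, 456 and 1208 FPKM in GAS YC (log2 fold change 1.35, adjusted p = 5.0e-04), while Ckm, the cytosolic form, had 5184, 4507 and 5717 FPKM in SOL YC, against 22742, 22485 and 20677 FPKM in GAS YC, a difference of -0.46 (adjusted p = 0.038) that was -2.102 without quantile normalization and did not pass with the mouse as a block (adjusted p = 0.11). Among the AMP deaminases, Ampd3 was higher in SOL YC at 25.7, 19.7 and 21.2 FPKM in SOL YC, against 3.08, 2.28 and 4.67 FPKM in GAS YC (log2 fold change 2.14, adjusted p = 5.7e-09) and Ampd1 lower at 172, 147 and 196 FPKM in SOL YC, against 509, 583 and 504 FPKM in GAS YC (log2 fold change -1.82, adjusted p = 1.2e-07). Without SOL YC 1 the number of lower genes in this list was 4 instead of 7.

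Ratios within pairs of isoforms do not change when all values of a library are multiplied by a common factor. Quantile normalization is not such a factor and can change them, and the ratios below are of FPKM before that step. For 20 of 24 pairs of a slow, oxidative or broadly expressed gene over its fast or muscle-specific partner, the 3 ratios of FPKM in SOL YC all lay above the 3 in GAS YC. For single genes rather than ratios, 22.7% of all genes were higher in SOL YC without overlap. The pairs were chosen with earlier results of these data known. For Tnni1 over Tnni2 the ratio was 0.316, 0.278 and 0.331 in SOL YC, against 0.000403, 2.8e-05 and 0.00598 in GAS YC. For Atp2a2 over Atp2a1 it was 0.738, 0.553 and 0.713 in SOL YC, against 0.000854, 0.000785 and 0.0112 in GAS YC, and for Ldhb over Ldha it was 2.24, 1.71 and 2.52 in SOL YC, against 0.0175, 0.00896 and 0.175 in GAS YC. The ratio was lower in every SOL YC library for Pln over Sln and for Cox7a2 over Cox7a1, and overlapped for Hk1 over Hk2 and Cox6a1 over Cox6a2.

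Of 49 regulators of fiber type and muscle metabolism, 20 were higher and 15 lower in SOL YC (40.8% and 30.6%), and 28 and 13 without quantile normalization. Among those higher were the nuclear receptors Esrrg, Esrrb and Ppara, which act on mitochondrial and fatty acid genes: Esrrg had 29.0, 23.2 and 26.9 FPKM in SOL YC, against 1.78, 1.39 and 5.95 FPKM in GAS YC (log2 fold change 2.64 ± 0.26 (SE), adjusted p = 2.7e-07), Esrrb 15.3, 13.5 and 12.4 FPKM in SOL YC, against 0.322, 0.256 and 2.37 FPKM in GAS YC (log2 fold change 2.80 ± 0.29 (SE), adjusted p = 4.3e-07) and Ppara 23.3, 20.8 and 14.2 FPKM in SOL YC, against 1.15, 0.756 and 3.69 FPKM in GAS YC (log2 fold change 2.65 ± 0.27 (SE), adjusted p = 3.8e-07). The coactivator gene Ppargc1a had 7.34, 9.44 and 10.1 FPKM in SOL YC, against 3.67, 4.36 and 5.19 FPKM in GAS YC and a small rise (log2 fold change 0.53 ± 0.14 (SE), adjusted p = 0.0054), and Perm1, a gene it induces, rose by 1.84. The homeobox gene Prox1 had 8.28, 4.36 and 6.83 FPKM in SOL YC, against 0.147, 0.104 and 0.237 FPKM in GAS YC (log2 fold change 2.41 ± 0.19 (SE), adjusted p = 2.2e-08), Tead1 73.2, 68.1 and 73.0 FPKM in SOL YC, against 22.6, 20.8 and 25.97 FPKM in GAS YC (log2 fold change 1.45, adjusted p = 6.6e-08), and Vgll2, a cofactor of Tead proteins, rose by 2.73. Rcan1, a known target of calcineurin and NFAT, had 151, 83.3 and 217 FPKM in SOL YC, against 22.9, 22.03 and 49.7 FPKM in GAS YC (log2 fold change 2.08, adjusted p = 5.6e-06).

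Lower in SOL YC were the large Maf factors Maf and Mafa, which drive the IIB program in the mouse. Maf had 3.54, 2.87 and 4.07 FPKM in SOL YC, against 30.1, 35.3 and 28.5 FPKM in GAS YC (log2 fold change -3.14 ± 0.18 (SE), adjusted p = 4.3e-10), and Mafa had 3.19, 3.37 and 3.05 FPKM in SOL YC, against 22.6, 18.6 and 15.5 FPKM in GAS YC (log2 fold change -2.55 ± 0.18 (SE), adjusted p = 4.9e-09). Eya4, a transcriptional cofactor, had 1.98, 2.07 and 2.53 FPKM in SOL YC, against 8.67, 11.3 and 7.34 FPKM in GAS YC (log2 fold change -1.99, adjusted p = 1.7e-07). Camk2a had 23.5, 22.1 and 21.9 FPKM in SOL YC, against 147, 138 and 119 FPKM in GAS YC (log2 fold change -2.68, adjusted p = 1.1e-10). Sox6, a repressor of slow genes, fell by 0.88 and Tbx15 by 0.67, and the myogenic factors Myf6 and Myod1 by 0.93 and 0.98. Myog and the Mef2 genes Mef2a and Mef2c did not pass, though Mef2c did with the mouse as a block (adjusted p = 0.035).

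Of 30 transcription factors of limb position, 7 were higher and 9 lower in SOL YC (23.3% and 30%), but 13 and 6 without quantile normalization and 10 and 7 with median ratio scaling, so that the balance turned. Tbx3 had 5.17, 5.77 and 4.73 FPKM in SOL YC, against 1.01, 0.797 and 1.15 FPKM in GAS YC (log2 fold change 1.28 ± 0.12 (SE), adjusted p = 1.3e-07). Of the Hox genes, Hoxd9 had 2.07, 2.095 and 1.68 FPKM in SOL YC, against 10.1, 11.6 and 6.96 FPKM in GAS YC (log2 fold change -2.16 ± 0.29 (SE), adjusted p = 8.5e-06), Hoxd8 4.24, 4.44 and 3.13 FPKM in SOL YC, against 19.5, 19.98 and 6.13 FPKM in GAS YC (log2 fold change -1.90, adjusted p = 0.0014) and Hoxd10 0.630, 0.404 and 0.350 FPKM in SOL YC, against 2.99, 2.88 and 2.05 FPKM in GAS YC (log2 fold change -1.63, adjusted p = 7.4e-06). Hoxc10, the Hox gene of highest level, had 31.9, 27.7 and 31.9 FPKM in SOL YC, against 50.0, 51.7 and 42.0 FPKM in GAS YC (log2 fold change -0.76, adjusted p = 8.5e-06). Tbx4, of the hindlimb, did not pass (1.85, 1.69 and 2.20 FPKM in SOL YC, against 0.642, 1.59 and 1.68 FPKM in GAS YC).

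Among secreted factors, 11 of 30 were higher and 4 lower in SOL YC (36.7% and 13.3%). Mstn, myostatin, the inhibitor of muscle growth, had 0.864, 0.617 and 0.360 FPKM in SOL YC, against 50.6, 47.3 and 27.2 FPKM in GAS YC (log2 fold change -4.87 ± 0.31 (SE), adjusted p = 1.7e-09), and its close relative Gdf11 had 0.515, 0.471 and 0.511 FPKM in SOL YC, against 3.26, 2.63 and 2.67 FPKM in GAS YC (log2 fold change -1.68 ± 0.13 (SE), adjusted p = 1.3e-08). Their antagonist Fst, follistatin, was higher in SOL YC at 5.17, 3.53 and 4.96 FPKM in SOL YC, against 1.10, 0.847 and 1.82 FPKM in GAS YC (log2 fold change 0.92 ± 0.18 (SE), adjusted p = 4.7e-04). Fndc5, the precursor of irisin, had 106, 99.6 and 118 FPKM in SOL YC, against 10.6, 12.1 and 42.3 FPKM in GAS YC (log2 fold change 2.41 ± 0.33 (SE), adjusted p = 1.0e-05), Fgf2 3.80, 4.79 and 2.89 FPKM in SOL YC, against 0.272, 0.551 and 0.904 FPKM in GAS YC (log2 fold change 1.29, adjusted p = 3.6e-06), and the vessel growth factors Vegfa and Vegfb rose by 1.34 and 0.62. Fgf21 and Nrg1 were listed at 0 in all 6 libraries.

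Heat shock and oxidative defence genes were higher in SOL YC for 13 of 25 members and lower for 4 (52% and 16%). The small heat shock genes were the most abundant: Cryab, αB-crystallin, had 2952, 2474 and 2378 FPKM in SOL YC, against 538, 286 and 711 FPKM in GAS YC (log2 fold change 2.27 ± 0.30 (SE), adjusted p = 8.2e-06), Hspb6 2149, 1726 and 1823 FPKM in SOL YC, against 491, 426 and 634 FPKM in GAS YC (log2 fold change 1.599 ± 0.17 (SE), adjusted p = 6.8e-07) and Hspb7 1415, 1268 and 1238 FPKM in SOL YC, against 121, 62.8 and 185 FPKM in GAS YC (log2 fold change 3.38 ± 0.29 (SE), adjusted p = 4.2e-08). Hspa1a, inducible Hsp70, had 39.0, 24.9 and 37.4 FPKM in SOL YC, against 2.32, 1.62 and 5.67 FPKM in GAS YC (log2 fold change 2.86, adjusted p = 4.6e-07), and its near-identical neighbour Hspa1b, with which it may share reads, rose by 2.72. Cat, catalase, had 125, 127 and 136 FPKM in SOL YC, against 23.1, 23.2 and 46.4 FPKM in GAS YC (log2 fold change 2.00, adjusted p = 8.8e-08). Lower were Gstm1, Sod1, Hspb8 and Gpx3, by 0.86, 0.61, 0.60 and 0.52, and Gpx3 did not pass with the mouse as a block (adjusted p = 0.0998). Prdx3 was called higher by 0.18 and had -0.07 with median ratio scaling.

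The endplate carries the acetylcholine receptor, and 10 of 18 genes of the neuromuscular junction were higher and 5 lower in SOL YC (55.6% and 27.8%), and 12 and 3 without quantile normalization. Chrna1 had 11.8, 8.12 and 14.7 FPKM in SOL YC, against 2.12, 2.58 and 4.37 FPKM in GAS YC (log2 fold change 1.28 ± 0.18 (SE), adjusted p = 1.1e-05) and Chrnd 4.50, 3.67 and 4.83 FPKM in SOL YC, against 0.401, 0.320 and 1.27 FPKM in GAS YC (log2 fold change 1.39 ± 0.17 (SE), adjusted p = 2.4e-06), whereas Chrnb1 and the adult subunit gene Chrne fell by 0.73 and 0.88. Lrp4, the agrin receptor, and Musk, the kinase it activates, rose by 0.99 and 0.64, Utrn, utrophin, by 1.17 and Colq, the tail of acetylcholinesterase, by 1.02, while Ache itself fell by 0.83. The fetal subunit gene Chrng was listed at 0 in 5 of the 6 libraries. In a list of genes known to change after denervation 9 of 20 were higher and 6 lower (45% and 30%), among them Ncam1 at 9.22, 9.24 and 8.79 FPKM in SOL YC, against 1.25, 1.38 and 2.22 FPKM in GAS YC (log2 fold change 1.605, adjusted p = 4.0e-09) and Gadd45a, which fell by 1.36. Of the atrophy ligases, Trim63 (MuRF1) fell by 0.63, with its highest level in GAS YC 2, and Fbxo32 did not pass (86.8, 71.4 and 87.3 FPKM in SOL YC, against 53.4, 71.0 and 64.8 FPKM in GAS YC).

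Among lists of markers of cells other than muscle fibers, the share called differed. Endothelial genes were higher in SOL YC for 10 of 20 members and lower for 0 (50% and 0%), and for 16 and 0 without quantile normalization: Pecam1 had 37.0, 44.9 and 35.02 FPKM in SOL YC, against 16.1, 18.1 and 22.9 FPKM in GAS YC (log2 fold change 0.85 ± 0.12 (SE), adjusted p = 1.5e-05), Kdr 13.7, 15.1 and 13.2 FPKM in SOL YC, against 4.47, 3.52 and 8.58 FPKM in GAS YC (log2 fold change 0.97 ± 0.19 (SE), adjusted p = 3.9e-04) and Flt1 17.0, 21.1 and 15.4 FPKM in SOL YC, against 6.15, 6.28 and 9.46 FPKM in GAS YC (log2 fold change 0.93, adjusted p = 9.6e-05). Tendon and myotendinous junction genes were higher for 11 of 15 and lower for 0 (73.3% and 0%), and higher for 8 without SOL YC 2, which was the highest library in most of them. Col22a1, of the myotendinous junction, had 17.4, 24.3 and 14.1 FPKM in SOL YC, against 4.22, 4.31 and 4.69 FPKM in GAS YC (log2 fold change 1.54, adjusted p = 5.1e-05) and Cilp 52.7, 79.6 and 36.3 FPKM in SOL YC, against 9.49, 9.89 and 19.5 FPKM in GAS YC (log2 fold change 1.85, adjusted p = 9.1e-05). In the fibroblast list 5 of 20 were higher and 3 lower (25% and 15%), a share in all close to that of all genes, and the counts were 2 and 3 without SOL YC 2, 8 and 4 with the mouse as a block and 11 and 2 without quantile normalization. Postn, periostin, had 38.6, 68.9 and 35.4 FPKM in SOL YC, against 1.18, 0.986 and 3.99 FPKM in GAS YC (log2 fold change 3.83, adjusted p = 8.2e-07) and Mgp 300.4, 412 and 258 FPKM in SOL YC, against 61.9, 68.5 and 130.1 FPKM in GAS YC (log2 fold change 1.91, adjusted p = 7.5e-06). Smooth muscle and pericyte genes were higher for 6 of 14 and lower for 1 (42.9% and 7.14%), for 2 and 1 without SOL YC 2 and for 7 and 0 without quantile normalization. The part of these cells in the differences above was not tested.

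Adipocyte genes summed to 548, 1445 and 527 FPKM in SOL YC, against 493, 551 and 469 FPKM in GAS YC, so that SOL YC 2 alone stood apart. Of the 18 genes, 3 were higher and 0 lower in SOL YC (16.7% and 0%), namely Cidea, Acaca and Lipe. Cidea had 4.47, 4.47 and 4.85 FPKM in SOL YC, against 0.0737, 0.213 and 0.640 FPKM in GAS YC (log2 fold change 1.85, adjusted p = 1.2e-05), and Adipoq did not pass (adjusted p = 1). Of 20 macrophage and immune markers limma called 0 in either direction, with 0 at an unadjusted p under 0.05, while with the 6 YC libraries alone 1 was called lower in SOL YC, and 2 with the mouse as a block in that fit. Satellite cell genes were higher for 4 of 14 and lower for 2 (28.6% and 14.3%), for 10 and 0 without quantile normalization, for 10 and 1 with median ratio scaling and for 6 and 2 with the mouse as a block; Pax7 had 1.17, 1.11 and 1.10 FPKM in SOL YC, against 0.495, 0.474 and 0.583 FPKM in GAS YC (adjusted p = 0.059). Schwann cell genes were higher for 2 of 14 and lower for 2 (14.3% and 14.3%), shares below those of all genes, and for 4 and 0 without quantile normalization and 3 and 0 with median ratio scaling. The largest difference called was that of Drp2 (0.42), and with the mouse as a block 0 were higher and 1 lower (Drp2 adjusted p = 0.059). In the spindle list 7 of 12 were higher and 1 lower (58.3% and 8.33%), and 7 and 0 without quantile normalization, Myh6 and Myh7b being shared with the lists above, and Egr3 had 0.815, 1.09 and 0.547 FPKM in SOL YC, against 0.0451, 0.0300 and 0.182 FPKM in GAS YC (log2 fold change 0.57, adjusted p = 1.3e-05).

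Globin genes come in near-identical copies between which reads were divided unevenly, and as a sum Hba-a1 and Hba-a2 had 54.0, 49.4 and 13.7 FPKM in SOL YC, against 90.6, 122.7 and 49.6 FPKM in GAS YC. The sum of the β-globin genes was 70.4, 58.3 and 11.97 FPKM in SOL YC, against 110.5, 85.6 and 70.5 FPKM in GAS YC. The β sums did not overlap between the muscles, the α sums did, and both were lower in SOL than in GAS in each of the 3 mice. Hba-a2 was the member of the erythrocyte list that was called (log2 fold change -4.78, adjusted p = 0.0058). Of 18 clock genes 1 was higher and 3 lower in SOL YC (5.56% and 16.7%), shares below those of all genes, and the counts were 5 and 1 without quantile normalization and 2 and 4 with the mouse as a block. Bhlhe41 had 5.51, 7.17 and 5.99 FPKM in SOL YC, against 11.0, 10.6 and 9.02 FPKM in GAS YC (log2 fold change -0.96, adjusted p = 9.3e-05), and Cry1, called lower by 0.31, had a difference of 0.08 without quantile normalization.

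Counts of several lists fell by more than 1.5 times when the 6 YC libraries were fitted alone with the mouse as a block, or when each gene had an equal-variance test, as did the total over all genes. The members higher in SOL YC then numbered 1 and 3 of 20 endothelial genes, 0 and 0 of 14 smooth muscle and pericyte genes, 4 and 4 of 15 tendon genes, 2 and 2 of 20 fibroblast genes, 3 and 7 of 30 secreted factors, 4 and 7 of 20 genes of the tricarboxylic acid cycle, 4 and 5 of 11 myosin heavy chains, and 5 and 9 of 17 slow contractile genes. They numbered 3 and 6 of 30 respiratory chain genes, and 2 and 4 of 19 genes of oxygen storage, phosphocreatine and adenine nucleotides. For heat shock and oxidative defence they numbered 8 and 10 of 25, for the regulators 14 and 12 of 49. For adipocyte genes they numbered 1 and 1 of 18, and for the spindle list 4 and 6 of 12. Lower in SOL YC were 7 and 8 of 26 calcium handling genes and 2 and 2 of 18 neuromuscular junction genes. So were 4 and 5 of 30 limb position factors, 5 and 5 of 25 excitability genes and 1 and 1 of 18 clock genes. In fatty acid oxidation 18 and 21 of 23 were higher. In glycolysis 18 and 17 of 31 were lower, while the higher members fell from 6 to 1 and 1.

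The largest differences outside the lists lay mostly on the GAS side. Mss51, a mitochondrial gene of fast muscle, had 1.27, 0.526 and 0.705 FPKM in SOL YC, against 104, 139 and 67.0 FPKM in GAS YC (log2 fold change -5.999 ± 0.50 (SE), adjusted p = 3.2e-08), and Odf3l2 0.193, 0.0373 and 0 FPKM in SOL YC, against 33.8, 70.5 and 21.6 FPKM in GAS YC (log2 fold change -5.28 ± 0.33 (SE), adjusted p = 1.4e-09). Polyamine genes were among them: Smox, spermine oxidase, had 12.7, 6.68 and 6.07 FPKM in SOL YC, against 264, 306 and 242 FPKM in GAS YC (log2 fold change -5.12 ± 0.26 (SE), adjusted p = 1.1e-10), and Amd2, a copy of the S-adenosylmethionine decarboxylase gene that may share reads with other copies, had 32.0, 19.4 and 21.4 FPKM in SOL YC, against 577, 669 and 438 FPKM in GAS YC (log2 fold change -4.80 ± 0.40 (SE), adjusted p = 3.7e-08). Cib2, a calcium-binding protein, had 9.64, 9.14 and 6.93 FPKM in SOL YC, against 183, 179.6 and 149 FPKM in GAS YC (log2 fold change -4.41 ± 0.19 (SE), adjusted p = 3.0e-11), and Tspan8, a tetraspanin, 2.24, 1.13 and 0.869 FPKM in SOL YC, against 40.6, 32.6 and 28.5 FPKM in GAS YC (log2 fold change -4.12 ± 0.23 (SE), adjusted p = 4.6e-10). In each of these 6 genes the lowest GAS YC library lay far above the highest SOL YC library.

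Rows for microRNA genes bear on the slow program, since Mir208b lies within Myh7 and Mir499 within Myh7b, and they were picked after their values were seen. Mature sequences are from RefSeq (GRCm38.p6), 5′ to 3′, with the seed (bases 2 to 8) in capitals, to show how alike the seeds of these muscle microRNAs are.
miR-208b-3p, chr14:54975710-54975731, minus strand: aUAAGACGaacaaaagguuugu
miR-499-5p, chr2:155622893-155622913, plus strand: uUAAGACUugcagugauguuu
miR-206-3p, chr1:20679055-20679076, plus strand: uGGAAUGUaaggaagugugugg
The seeds of miR-208b-3p and miR-499-5p agree in the first 6 of 7 bases, and that of miR-206-3p is unlike them. Mir208b had 6.85, 2.83 and 1.49 FPKM in SOL YC and was listed at 0 in all GAS YC libraries (adjusted p = 7.4e-05). Mir499 had 0.195, 0.461 and 1.29 FPKM in SOL YC, against 0, 0 and 0.0150 FPKM in GAS YC (adjusted p = 0.15), and Mir206 had 2.08, 0.815 and 0.470 FPKM in SOL YC and was listed at 0 in GAS YC (adjusted p = 0.051, and 0.044 with the mouse as a block). The libraries were made from polyadenylated RNA, so that these rows count precursor or host transcripts and not the mature microRNAs.

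The difference between the muscles was also set against that of the YE, OC and OE mice. By limma, 10 of 18795 genes (0.0532%) differed in it at adjusted p under 0.05, 5 with the mouse as a block, and 1742 at an unadjusted p under 0.05. The count rose to 154 (0.819%) without GAS YC 3. Those 154 included 5 of 17 slow contractile genes and 4 of 23 of fatty acid oxidation, 3 of 22 of fatty acid uptake and storage and 0 to 2 of each other list. For Myh2 the YC difference exceeded that of the other groups by 0.98 (adjusted p = 0.58), and by 1.79 (adjusted p = 0.0063) without GAS YC 3. For Mb the values were 1.58 (adjusted p = 0.36) and 2.37 (adjusted p = 0.0063), and for Ldhb 1.76 (adjusted p = 0.46) and 2.88 (adjusted p = 0.0052). The larger differences without GAS YC 3 moved with the low slow and oxidative levels of GAS YC 1 and 2 given above, and the part of these libraries in them was not tested further.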

How the data were processed

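RNA of soleus and gastrocnemius was prepared as stranded polyadenylated libraries and sequenced, 1 library per muscle and mouse. The authors aligned reads to mm10 with HISAT2 2.1.0 and obtained FPKM with StringTie 1.3.4d. They deposited FPKM and log2 values of FPKM + 1, quantile normalized over all 24 libraries; repeating that step gave values within 5e-09 of the deposited log2 values. Columns of their own folds, p-values, test scores and group means of SOL against GAS were not used. Reads per library are unknown, so precision rests on the 3 mice per group.

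Differences were fitted with limma 3.58.1 (R 4.3.3, intensity trend, two-sided) on the 24 libraries without a block, and p-values adjusted by Benjamini-Hochberg over 18795 genes. A second contrast set the difference of YC against the mean of the YE, OC and OE differences. The script was tested on simulated data. SOL and GAS libraries of 1 number come from 1 mouse, and over 10718 genes their deviations from the group means correlated at 0.14, 0.12 and 0.09. All unlike numbers were below 0, which in part follows from these positive values, since deviations from the mean of 3 libraries sum to 0. Alternatives were the mouse as a block, no quantile normalization, median ratio scaling, a pseudocount of 0.1 instead of 1, an FPKM filter (at least 1 in 3 libraries), the 6 libraries alone, an equal-variance test and each YC library left out. Named were the 15 largest non-overlapping differences per direction, all contractile, myosin and calcium genes, per other list up to 8 members of smallest adjusted p and up to 3 called against the list's median, and 8 genes of the second contrast. Genes outside this rule are marked or given as not passing, and some genes within it are not reported here. The 30 lists and 24 pairs were chosen with earlier results of these data known. Positions are from GRCm38.p6, in which 18758 gene IDs were found.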

Additional observations from a re-analysis of the deposited data

Results flagged for a closer look

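The difference between SOL and GAS in YC departed from the mean difference in YE, OC and OE, by limma's test of that departure, in 10 genes. The 8 of smallest adjusted p with an annotated symbol are given, all but Met and Cpne2 at low levels. Values are departures on the log2 scale with limma's adjusted p.

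Cpn1, carboxypeptidase N, departed by 0.52 (adjusted p = 8.6e-04). It had 0, 0 and 0 FPKM in SOL YC, against 0.0594, 0.0694 and 0.0534 FPKM in GAS YC, and the other groups had 0 to 0.119 FPKM (median 0) in SOL and 0 to 0.984 FPKM (median 0.781) in GAS. Cpne2, a copine, departed by 1.07 (adjusted p = 0.038), with 4.16, 4.03 and 2.89 FPKM in SOL YC, against 4.09, 5.09 and 3.44 FPKM in GAS YC, and with 2.22 to 3.52 FPKM (median 2.87) in SOL and 3.46 to 19.2 FPKM (median 10.0) in GAS elsewhere. Trem2, a receptor of myeloid cells, departed by 0.72 (adjusted p = 0.016), with 0.845, 0.741 and 0.612 FPKM in SOL YC, against 0.278, 0.257 and 0.283 FPKM in GAS YC, and with 0.156 to 0.596 FPKM (median 0.415) in SOL and 0.363 to 1.14 FPKM (median 0.955) in GAS elsewhere. In these 3 genes GAS YC was low beside the median of the other GAS libraries. SOL YC was also high: all its Trem2 values, and the Cpne2 values of mice 1 and 2, lay above every other SOL library.

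Met, the hepatocyte growth factor receptor, departed by -0.58 (adjusted p = 0.008), with 3.11, 3.29 and 3.17 FPKM in SOL YC, against 3.11, 3.08 and 2.91 FPKM in GAS YC. Kcnj3, a potassium channel, departed by -0.56 (adjusted p = 0.017), with 0.0331, 0.0369 and 0.0831 FPKM in SOL YC, against 0.112, 0.0640 and 0.0822 FPKM in GAS YC. Ryr2, the cardiac release channel, departed by -0.24 (adjusted p = 0.0055), with 0.0367, 0.0606 and 0.0228 FPKM in SOL YC, against 0.00421, 0.00300 and 0 FPKM in GAS YC. S100a3 departed by 0.18 (adjusted p = 0.008), with 0.121, 0.243 and 0.190 FPKM in SOL YC, against 0, 0 and 0 FPKM in GAS YC, and AI847159 by 0.22 (adjusted p = 0.016), with 0.0430, 0.0889 and 0 FPKM in SOL YC, against 0, 0 and 0 FPKM in GAS YC. Levels of the other groups are not given for Met, Kcnj3, Ryr2, S100a3 and AI847159, so the muscle that departed is not shown for them. With the mouse as a block, Cpn1 and Ryr2 kept an adjusted p under 0.05 (both 0.037), and Met, S100a3, Trem2, AI847159, Kcnj3 and Cpne2 did not (0.13, 0.083, 0.16, 0.091, 0.091 and 0.059).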

How the results depend on the processing

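The number of genes called, 7198, became 4019 with the 6 libraries alone and the mouse as a replicate block and 4784 with the equal-variance test; the calls with the block in all 24 libraries numbered 7210. The 3557 genes higher in SOL YC became 7190 without quantile normalization, 1947 with 6 libraries and block and 2319 with the equal-variance test, and the 3641 higher in GAS YC became 1648, 2072 and 2465. The 1135 genes by unadjusted p and fold became 2195 with a pseudocount of 0.1. The 10 genes whose difference departed from YE, OC and OE became 5 with the mouse as a block and 6 with a pseudocount of 0.1 or with the FPKM filter. Leaving out each YC library gave 6259 to 7155 calls, 3097 to 3430 higher in SOL YC and 3119 to 3725 higher in GAS YC, 1080 to 1296 by p and fold, 7 to 154 for the departure (16 without SOL YC 3, 154 without GAS YC 3) and a Myh7 share difference of 39.1 to 42.8 points.

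Among named genes, 11 values turned direction. Without quantile normalization they were Atp5o 0.00, Cry1 0.08, Des 0.04, Met 0.06, Per2 0.31, Ppard 0.24, Tnni2 -1.78 and Vdac1 0.02. With median ratio scaling they were Ndufs3 -0.24, Prdx3 -0.07 and Tnni2 -2.09. Of 8943 values of named genes under the alternatives, 8084 kept direction and call, 618 lost the call and 230 gained it. With all 24 libraries and the mouse as a block, changed calls of genes in the report and list counts that moved by over 1.5 times are given beside their results; other list counts moved by no more than that. With the 6 libraries and block, Myh7 was at adjusted p = 0.052. The depth in reads is unknown, and low levels are least certain. The causes of these changes were not tested.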

Other observations

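Several genes outside the lists differed strongly between SOL YC and GAS YC, and they were picked after their values were seen. Xpo4, an exportin, had 31.3, 22.6 and 31.6 FPKM in SOL YC, against 0.814, 0.762 and 1.33 FPKM in GAS YC (log2 fold change 3.65 ± 0.17 (SE), adjusted p = 4.6e-11), with GAS values close to one another. Homer2, a scaffold of calcium signalling, had 40.0, 34.2 and 40.4 FPKM in SOL YC, against 1.31, 1.09 and 3.10 FPKM in GAS YC (log2 fold change 3.60 ± 0.39 (SE), adjusted p = 7.0e-07). The thin filament gene Lmod2, leiomodin 2, had 607, 593 and 751 FPKM in SOL YC, against 31.9, 26.9 and 127 FPKM in GAS YC (log2 fold change 3.59 ± 0.39 (SE), adjusted p = 7.1e-07), and Pdlim1, of the actin cytoskeleton, 240.2, 207 and 236 FPKM in SOL YC, against 12.7, 8.94 and 40.4 FPKM in GAS YC (log2 fold change 3.58 ± 0.36 (SE), adjusted p = 3.4e-07). Ablim1, an actin-binding LIM protein, had 124, 23.2 and 24.9 FPKM in SOL YC, against 1.02, 0.927 and 1.85 FPKM in GAS YC (log2 fold change 3.996 ± 0.51 (SE), adjusted p = 5.0e-06), with SOL YC 1 far above SOL YC 2 and 3, and the 9 other mice had 21.9 to 70.9 FPKM (median 27.5) in SOL and 1.17 to 6.59 FPKM (median 1.95) in GAS.

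On the GAS side, Prkag3, the γ3 subunit of AMP-activated kinase of glycolytic muscle, had 6.15, 4.32 and 4.54 FPKM in SOL YC, against 93.0, 77.3 and 63.1 FPKM in GAS YC (log2 fold change -3.98 ± 0.22 (SE), adjusted p = 4.3e-10). Plcd4, a phospholipase C, had 3.98, 3.04 and 4.68 FPKM in SOL YC, against 57.9, 53.1 and 53.1 FPKM in GAS YC (log2 fold change -3.78 ± 0.14 (SE), adjusted p = 5.0e-12), and the signalling ligand Wnt4 had 0.551, 0.286 and 0.428 FPKM in SOL YC, against 13.5, 11.0 and 9.83 FPKM in GAS YC (log2 fold change -3.36 ± 0.16 (SE), adjusted p = 4.7e-11). Rasd2, a small GTPase, had 1.33, 1.52 and 1.17 FPKM in SOL YC, against 32.0, 44.7 and 19.4 FPKM in GAS YC (adjusted p = 1.6e-08). None of these 4 genes overlapped between the muscles in YC, and in the 9 other mice Wnt4 had 0.293 to 0.648 FPKM (median 0.415) in SOL and 9.86 to 15.1 FPKM (median 11.8) in GAS.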
